A study of Homo sapiens with 12 samples.

Results

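Messenger RNA of 9 genes that supply DNA synthesis with deoxynucleotides was compared in C4-2 cells after siRNA against CHKA and after nontargeting siRNA. The genes were RRM1, RRM2, TYMS, TK1, DUT, DTYMK, DCK, SAMHD1 and CTPS1, out of 54127 genes in the count files. All 9 were matched by Ensembl identifier, and all 9 passed the filter on low counts that left 14501 genes to test. They were chosen by the levels of RRM2 and TYMS, which fell strongly in this same comparison. The differences of the 9 genes between the groups are therefore given as a description, without a test.

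C4-2 is a human prostate cancer cell line derived from LNCaP. Every sample was grown in RPMI with fetal bovine serum and reverse transfected with 50 nM of an siRNA pool using Lipofectamine RNAiMAX. The 6 siCHKA samples received a pool against CHKA, the gene of choline kinase alpha, which makes phosphocholine, and the 6 siNT samples received a pool without a target. The groups therefore share the cell line, the transfection and the siRNA dose, and with 1 pool against CHKA, loss of CHKA and other effects of that pool cannot be told apart. The study speaks of biological replicates but gives their number differently in different places, and the labels do not say which samples came from separate cultures, so the p-values below measure only the spread between these samples. The labels also say that RNA came from cells sorted by flow cytometry and give no gate, so which cells were kept is not known here.

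DNA replication uses the 4 deoxynucleoside triphosphates, and cells make them mainly in S phase. Ribonucleotide reductase turns ribonucleoside diphosphates into deoxyribonucleoside diphosphates, thymidylate synthase makes dTMP from dUMP, and kinases salvage deoxynucleosides from outside the cell or from DNA turnover. Several of these genes, RRM2, TYMS and TK1 among them, are classical targets of the cell cycle programme, and TYMS and ribonucleotide reductase are targets of cancer drugs.

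Depth was 12158361 to 20670479 reads on genes in the siCHKA samples and 10685184 to 24246055 in the siNT samples, and a count of 3 reads corresponds to 0.124 to 0.281 counts-per-million (CPM). Of reads counted on a gene, on no gene or as ambiguous, 6.70% to 8.54% fell on no gene in siCHKA and 5.49% to 6.63% in siNT. This share separated the groups, and its part in the results below was not tested. Alignments listed as not unique, 4288985 to 10592710 per sample, are outside it. CHKA itself measured 2.75 ± 1.03 CPM in siCHKA and 40.7 ± 2.55 CPM in siNT (SD, n = 6 each), a log2 fold change of -3.88 with an adjusted p of 5.894e-13 in edgeR's quasi-likelihood test. All 9 prostate epithelium markers listed for the cell line were at or above 1 CPM in every sample. Leukocyte markers summed to at most 0.784 CPM in any sample, with CD3E at 0. The 3 of 4 endothelial markers that were matched summed to at most 3.65 CPM. Fibroblast markers summed to 25.0 to 32.4 CPM in siCHKA and 15.8 to 22.4 CPM in siNT, whose part in the results was not tested. Of these 6 markers, 1 was at or above 1 CPM in every siCHKA sample and 2 in every siNT sample, and LUM was at 0 in siNT. The siCHKA samples formed 2 sets, replicates 1, 3 and 5 and replicates 2, 4 and 6. Samples of a set differed by 0.103 to 0.144 (root mean square log2 CPM over genes) and samples of different sets by 0.214 to 0.293, against 0.125 to 0.255 among siNT samples and 0.501 to 0.578 between siCHKA and siNT. The labels give no batch, and values by set are given where the sets lay apart in a result that turns on them. The sets were found in these data and are not groups of the study, so calls by set are a description.

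Transcripts of 8 of the 9 genes were lower in the siCHKA samples, and that of SAMHD1 was not. Of all genes tested, 30.1% were lower and 32.1% higher at an adjusted p below 0.05 in edgeR's quasi-likelihood test, and the same test called 8 of the 9 lower and 0 higher. The log2 fold changes of the 9 genes had a median of -0.80, beside 0.035 over all genes tested. In the same 8 genes, every siCHKA sample was below every siNT sample, which was so for 21.5% of all genes tested, and 19.1% had every siCHKA sample above. Nothing is read from these counts, because the comparison that chose the genes is the one counted. In bulk RNA, fewer cells making a transcript and less of it per cell cannot be told apart.

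**Figure D1:**
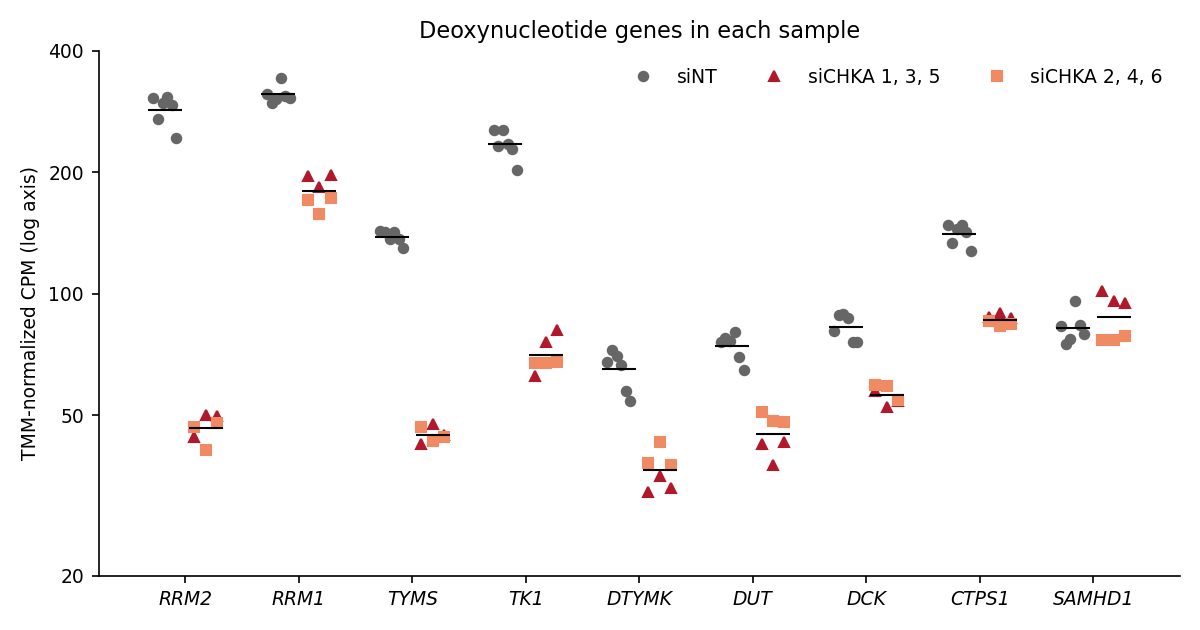
Transcript level of the 9 genes in CPM, on a log axis, in each of the 12 samples, with a point per sample (circles siNT, triangles siCHKA replicates 1, 3 and 5, squares siCHKA replicates 2, 4 and 6) and a line at the mean of each group. RRM2 sits between 40.9 and 50.1 CPM in siCHKA and between 243.0 and 307.0 CPM in siNT, while the SAMHD1 points of the groups overlap.

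RRM2 (ENSG00000171848, GRCh38 chr2:10120698-10211725, plus strand) encodes the small subunit of ribonucleotide reductase, which carries the radical needed for catalysis and is made in S phase. It measured 40.9, 47.3 and 50.1 CPM (lowest, median and highest of 6 samples) in siCHKA and 243.0, 294.7 and 307.0 CPM in siNT. The groups were far apart, and the spread within each was small beside the gap. The means were 46.6 ± 3.51 and 285.9 ± 24.6 CPM (SD, n = 6 each), so siCHKA samples held 16.3% of the siNT level, a log2 fold change of -2.62 (SE 0.07). Only 12 of the 14501 genes tested, or 0.0828%, had a lower log2 fold change. As RRM2 was chosen for its fall, this place is a description.

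RRM1 (ENSG00000167325, chr11:4094707-4138932, plus strand) encodes the large subunit, which holds the catalytic and the allosteric sites. It measured 157.5, 178.4 and 196.7 CPM in siCHKA and 296.6, 307.3 and 343.2 CPM in siNT (lowest, median and highest). The groups did not overlap, but the siCHKA samples still held 57.6% of the siNT mean (179.5 ± 15.3 against 311.7 ± 16.4 CPM, log2 fold change -0.80, SE 0.06). The subunits of 1 enzyme thus differed in how far they fell.

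RRM2B, outside the 9 genes, encodes the alternative small subunit, which is induced by p53 and serves DNA repair and mitochondrial DNA synthesis in resting cells. It measured 109.8 ± 7.62 CPM in siCHKA and 101.7 ± 5.13 CPM in siNT, a log2 fold change of 0.11 with an adjusted p of 0.08475 in edgeR's test. The sets lay apart, at means of 116.2 CPM in siCHKA replicates 1, 3 and 5 and 103.4 CPM in replicates 2, 4 and 6. With the first set alone the log2 fold change was 0.20. RRM2B was past the threshold in 4 of 14 alternative analyses, the fit with that first set among them.

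The balance of the subunits can be set out only per length of transcript, in CPM per kilobase (RPKM). With the length of the canonical transcript, the RRM2 level was 0.885 ± 0.065 of the RRM1 level in siNT (range 0.769 to 0.943) and 0.251 ± 0.018 in siCHKA (range 0.218 to 0.267). The RRM2B level was 0.245 ± 0.030 of the RRM2 level in siNT and 1.62 ± 0.15 in siCHKA (SD, n = 6 each). In siNT samples RRM2 transcripts were thus the more abundant of the small subunits per length, and in siCHKA samples RRM2B transcripts were, in every sample. With the summed length of all annotated exons, which is 9153 bases for RRM2 against 3258 for its canonical transcript, RRM2 stood at 0.424 and 0.12 of RRM1 in siNT and siCHKA, and RRM2B at 0.609 and 4.02 of RRM2. Both lengths come from a later annotation than the one used for counting. Summed exons may therefore include bases on which no read could be counted, and ratios over them are the less certain. The absolute ratios moved with the length used, and the place of RRM2B above or below RRM2 did not.

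**Figure D2:**
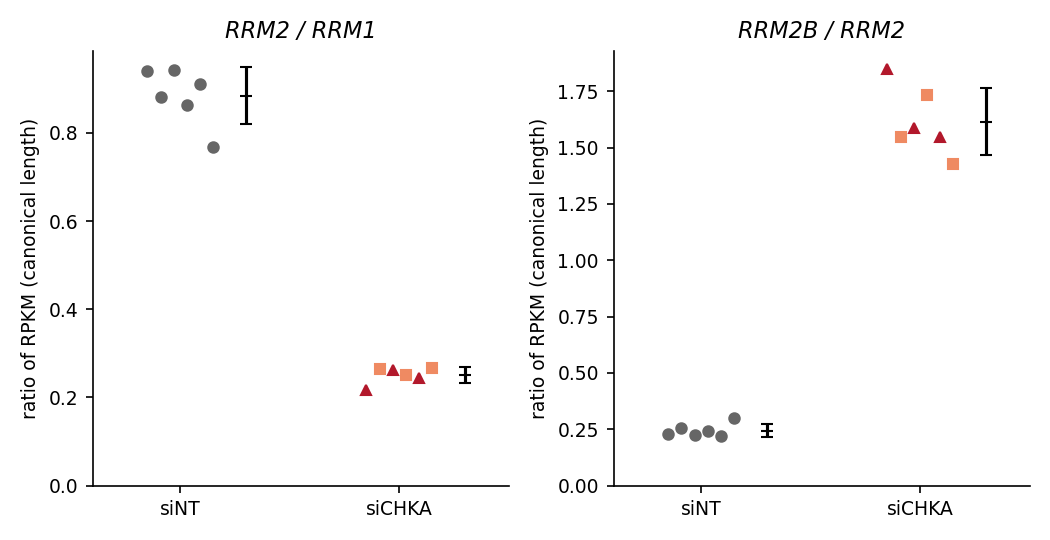
Per-length ratios of transcripts in each sample, on the canonical transcript length, with a point per sample (triangles siCHKA replicates 1, 3 and 5, squares replicates 2, 4 and 6) and the mean and SD of each group. The RRM2 to RRM1 ratio is lower and the RRM2B to RRM2 ratio higher in all 6 siCHKA samples than in any siNT sample.

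TYMS (ENSG00000176890, chr18:657653-673578, plus strand) encodes thymidylate synthase, the enzyme of new dTMP synthesis. It measured 42.4, 44.4 and 47.5 CPM in siCHKA and 129.5, 139.1 and 142.7 CPM in siNT (lowest, median and highest). All siCHKA samples lay close together, well under the lowest siNT sample. The siCHKA mean was 32.4% of the siNT mean (44.7 ± 1.98 against 138.1 ± 5.13 CPM, SD, n = 6 each), a log2 fold change of -1.63 (SE 0.05).

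Reads of TYMS are less certain than those of most of the other genes, because 59.6% of the 40-base stretches of its canonical transcript also occur in transcripts of ENOSF1, TYMSOS or TYMSP2. ENOSF1 lies on the opposite strand and overlaps the end of TYMS (chr18:670318-712662). It measured 28.3 ± 3.55 CPM in siCHKA and 29.2 ± 3.36 CPM in siNT, with a log2 fold change of -0.04 and an adjusted p of 0.6866 (edgeR). By set it averaged 25.4 CPM in siCHKA replicates 1, 3 and 5 and 31.2 CPM in replicates 2, 4 and 6, without a call in either set. TYMSOS, antisense to the start of TYMS and named here after its values were seen, rose from 9.55 ± 1.18 to 14.7 ± 0.84 CPM (log2 fold change 0.61, adjusted p = 4.808e-06, edgeR). Whether the counting used strand is not given in the sources used here. If it did not, reads within the overlaps were left out as ambiguous, and the TYMS level rests on the rest of its transcript.

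TK1 (ENSG00000167900, chr17:78174091-78187233, minus strand) encodes the cytosolic thymidine kinase, which salvages thymidine in S phase. It measured 62.6, 67.6 and 81.5 CPM in siCHKA and 202.1, 233.3 and 254.9 CPM in siNT. No sample of a group came near the other group. The siCHKA mean was 30.0% of the siNT mean (70.4 ± 6.90 against 234.3 ± 19.5 CPM, log2 fold change -1.74, SE 0.07), close to the share of TYMS, the enzyme of the other route to dTMP.

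TK2, the mitochondrial thymidine kinase, measured 32.3 ± 1.58 CPM in siCHKA and 31.6 ± 3.30 CPM in siNT (log2 fold change 0.03, adjusted p = 0.694, edgeR). Per length of canonical transcript, TK1 stood 25.4 ± 4.65 times as high as TK2 in siNT and 7.35 ± 0.707 times in siCHKA. DGUOK, the mitochondrial deoxyguanosine kinase, measured 40.3 ± 3.47 and 36.6 ± 2.56 CPM (log2 fold change 0.14, adjusted p = 0.07204), and passed the threshold in 4 of 14 alternative analyses. DGUOK averaged 37.62 CPM in siCHKA replicates 1, 3 and 5 and 42.95 CPM in replicates 2, 4 and 6, without overlap of the sets. Neither mitochondrial kinase was called in the edgeR test with all samples.

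DTYMK (ENSG00000168393, chr2:241675747-241686944, minus strand) encodes thymidylate kinase, which phosphorylates dTMP from either route. It measured 32.3, 36.5 and 42.9 CPM in siCHKA and 54.3, 67.3 and 72.6 CPM in siNT, without overlap. The means were 36.5 ± 3.91 and 64.9 ± 7.30 CPM, 56.3% of siNT, with a log2 fold change of -0.83 (SE 0.08).

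DUT (ENSG00000128951, chr15:48331011-48343373, plus strand) encodes the dUTPase, which keeps uracil out of DNA and yields dUMP for thymidylate synthase. It measured 37.6, 45.5 and 50.8 CPM in siCHKA and 64.7, 76.2 and 80.5 CPM in siNT, without overlap. The siCHKA mean was 60.7% of the siNT mean (45.0 ± 4.94 against 74.1 ± 5.84 CPM, log2 fold change -0.72, SE 0.07). DCTD, the deaminase that makes dUMP from dCMP, measured 72.6 ± 1.77 and 67.1 ± 3.11 CPM, a log2 fold change of 0.11 with an adjusted p of 0.03248 (edgeR) that was lost in 11 of 14 alternative analyses.

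DCK (ENSG00000156136, chr4:70992538-71030914, plus strand) encodes deoxycytidine kinase, the entry of deoxycytidine, deoxyadenosine and deoxyguanosine into the pools and of drugs such as cytarabine and gemcitabine. It measured 52.5, 55.9 and 59.3 CPM in siCHKA and 75.8, 83.9 and 89.1 CPM in siNT, without overlap. At 67.8% of the siNT mean (56.1 ± 2.81 against 82.8 ± 6.17 CPM, log2 fold change -0.56, SE 0.06), DCK had the smallest decrease of the 8 lower genes. MOB1B, which overlaps DCK and was named after its values were seen, also measured less in siCHKA (43.4 ± 3.59 against 79.1 ± 9.64 CPM), and 6.49% of the 40-base stretches of DCK also occur in its transcripts.

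CTPS1 (ENSG00000171793, chr1:40979300-41012565, plus strand) encodes CTP synthase, which makes CTP from UTP for RNA, DNA and phospholipid synthesis. It measured 83.1, 86.4 and 89.8 CPM in siCHKA and 127.7, 143.1 and 148.2 CPM in siNT. The groups were apart and the siCHKA samples were tight, with means of 86.2 ± 2.45 and 140.5 ± 8.30 CPM (log2 fold change -0.70, SE 0.05). For CTPS2, the other CTP synthase, the log2 fold change was -0.08 (adjusted p = 0.1512, edgeR). In phospholipid synthesis, CTP activates phosphocholine, the product of choline kinase.

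SAMHD1 (ENSG00000101347, chr20:36890229-36951893, minus strand) encodes the hydrolase that breaks down deoxynucleoside triphosphates and so works against the other enzymes. It measured 76.8, 86.9 and 101.3 CPM in siCHKA and 74.9, 81.3 and 96.0 CPM in siNT. The groups overlapped, with means of 87.4 ± 11.1 and 82.4 ± 7.48 CPM and a log2 fold change of 0.08 (SE 0.08). Within siCHKA, replicates 1, 3 and 5 measured 101.3, 95.6 and 95.1 CPM, and replicates 2, 4 and 6 measured 76.8, 76.8 and 78.7 CPM. The log2 fold change against all siNT samples was 0.24 with the first set and -0.09 with the second, so even its sign depended on the set. The edgeR test called it higher with the first set and made no call with the second or with all samples. As the sets come from these data, a call by set is a description and supports nothing.

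The sets also separated other genes of the 9. RRM1, CTPS1 and SAMHD1 were higher in each of siCHKA replicates 1, 3 and 5 than in any of replicates 2, 4 and 6, DUT and DTYMK were lower, and the remaining 4 genes overlapped. Against all siNT samples, the log2 fold change with the first and second set was -0.70 and -0.91 for RRM1, -0.86 and -0.60 for DUT, and -0.95 and -0.73 for DTYMK. RRM2 (-2.57 and -2.67), TYMS (-1.62 and -1.64) and TK1 (-1.68 and -1.80) differed little between sets. Among siNT samples, replicate 6 was the lowest for 6 of the 9 genes, and it had the fewest reads on genes. What sets these samples apart was not tested.

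Promoter sequences of the 3 genes that fell furthest, and of SAMHD1 for comparison, are shown because promoters of cell cycle genes often hold E2F sites and CCAAT boxes, the sites of NF-Y. Each is the 250 bases before the RefSeq start in GRCh38.p14, read 5′ to 3′ on the strand of the gene, with capitals marking CCAAT and the E2F core words (TTCCCGC, or with GG, GC or CG in place of its first CC) on either strand.
RRM2, chr2:10122489-10122738, plus strand: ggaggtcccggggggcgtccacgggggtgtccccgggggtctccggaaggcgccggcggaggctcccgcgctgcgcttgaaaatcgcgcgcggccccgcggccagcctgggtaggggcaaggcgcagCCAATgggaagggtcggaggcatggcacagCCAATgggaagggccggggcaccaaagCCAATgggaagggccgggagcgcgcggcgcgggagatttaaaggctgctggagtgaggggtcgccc
TK1, chr17:78187053-78187302, minus strand: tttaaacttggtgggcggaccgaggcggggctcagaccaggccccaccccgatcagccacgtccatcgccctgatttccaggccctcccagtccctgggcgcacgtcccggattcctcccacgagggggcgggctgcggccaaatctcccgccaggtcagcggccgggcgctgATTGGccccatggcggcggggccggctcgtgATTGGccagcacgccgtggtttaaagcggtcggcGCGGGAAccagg
TYMS, chr18:657403-657652, plus strand: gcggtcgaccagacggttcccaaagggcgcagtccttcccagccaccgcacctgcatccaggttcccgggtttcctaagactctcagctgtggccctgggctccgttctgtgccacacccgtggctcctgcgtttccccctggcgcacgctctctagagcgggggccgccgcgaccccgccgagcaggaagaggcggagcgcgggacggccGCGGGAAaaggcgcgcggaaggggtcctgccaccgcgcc
SAMHD1, chr20:36951709-36951958, minus strand: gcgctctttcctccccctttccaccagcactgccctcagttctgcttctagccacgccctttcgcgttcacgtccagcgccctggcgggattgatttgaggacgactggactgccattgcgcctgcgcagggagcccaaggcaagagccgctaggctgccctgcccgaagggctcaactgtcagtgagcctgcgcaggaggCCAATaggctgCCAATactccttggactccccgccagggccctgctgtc

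RRM2 held 3 CCAAT words, 123 to 62 bases before its start, and no E2F core word at the start used here. TK1 held 2 CCAAT words on the opposite strand and 1 E2F core word, 12 to 6 bases before its start, while TYMS held 1 E2F core word, 39 to 33 bases before, and no CCAAT. SAMHD1 held 2 CCAAT words, so a pair of them was also found before a gene that was not lower. Over all 9 genes, 4 promoters held an E2F core word (RRM1, TYMS, TK1 and DCK) and 5 held CCAAT (RRM1, RRM2, TK1, DTYMK and SAMHD1).

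Among the 10581 tested genes with a promoter of the same length, 18.1% held an E2F core word, 35.6% held CCAAT and 4.83% held it at least 3 times, as RRM2 did. Over all 19089 promoters matched the shares were 13.7%, 34.2% and 3.66%. The CHR word TTTGAA was found before 1 of the 9 genes, RRM1, and before 7.45% of the tested genes. The GC box GGGCGG was found before 6 of the 9 and 70.9% of the tested genes. A word match is a description of letters in a window that depends on the start used. At another listed start of RRM2 (position 10122568) the window held 1 E2F core word, 1 CCAAT and 1 GC box. At another listed start of DUT (position 48332197) it held 2 E2F core words and 2 CHR words, whereas DUT held neither, nor CCAAT, at the start used here. At another listed start of TK1 (position 78187204) it held no E2F core word and no CCAAT.

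The heptamers GCCAGAT and TGCCCTT, which an earlier look at these samples had singled out in the 3′ UTRs of lower genes, were searched in the canonical transcripts of the 9 genes on the sense strand, and the sites are shown with the word in capitals (GRCh38).
RRM2, chr2:10130001-10130029, plus strand: agtcagttggtGCCAGATagaagacaggt
RRM2, chr2:10129390-10129418, plus strand: aactgaagatgTGCCCTTacttggctgat
SAMHD1, chr20:36891290-36891318, minus strand: gccaccgtgtaGCCAGATtctgttccgtc

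RRM2 held both words and SAMHD1 held 1, so 2 of the 9 genes had a match, and TYMS and TK1 had none. Of 12297 tested genes with a 3′ UTR, 23.6% held either word and 3.17% held both. The RRM2 3′ UTR is 2028 bases long, and 26.7% of the 1722 genes within 20% of that length held either word and 34 of them held both. The words came from genes lower in these same samples and RRM2 was chosen for its fall in them, so its matches are a description and support nothing. The siRNA sequences are not given in the sources used here, so no match to them was made.

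Compared per length over the summed exons, the siNT levels ran from TK1 (127 ± 10.6 RPKM) over RRM1 (73.6 ± 3.87), TYMS (57.1 ± 2.12), RRM2 (31.2 ± 2.69), DTYMK (27.0 ± 3.04), DCK (26.7 ± 1.99), DUT (20.2 ± 1.59) and CTPS1 (11.8 ± 0.69) to SAMHD1 (7.60 ± 0.69 RPKM). The samples of RRM2 and DTYMK, and of DTYMK and DCK, overlapped, so these neighbours have no clear order. The summed exons are those of a later annotation than the one used for counting, which makes this order uncertain. With canonical transcript lengths, 5 of the 9 genes kept their place. In siCHKA, RRM1 was the highest with either length (42.4 and 57.1 RPKM), TK1 came next and RRM2 was the lowest (5.09 and 14.3 RPKM). RRM2 thus moved from the upper or middle places of the order to the end.

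**Figure D3:**
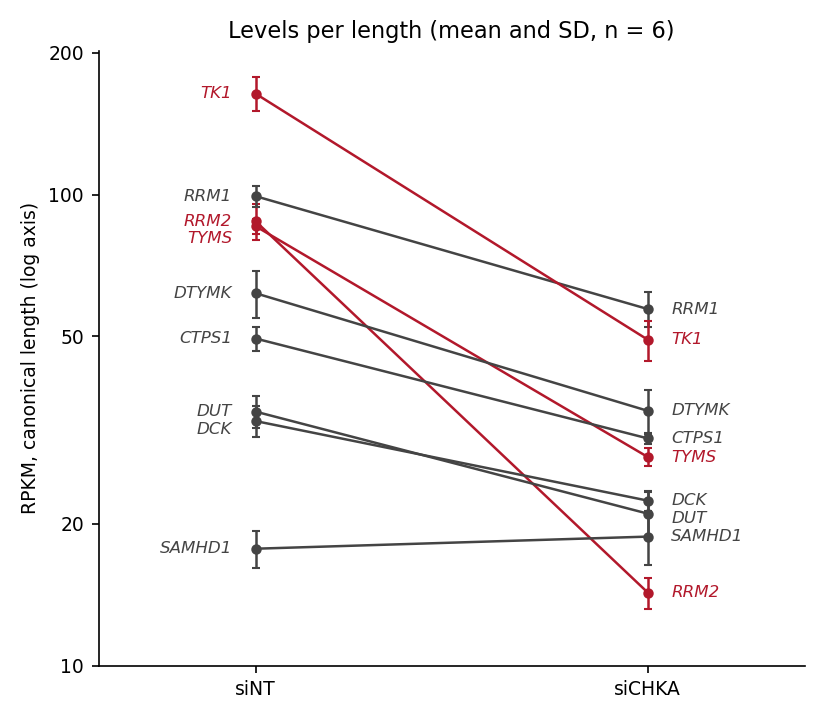
Levels of the 9 genes per length of canonical transcript in RPKM on a log axis, as the mean and SD of 6 samples in each group, with a line joining the groups of a gene and RRM2, TYMS and TK1 in red. RRM2 has 87.8 RPKM in siNT, below TK1 and RRM1, and 14.3 RPKM in siCHKA, the lowest of the 9 genes.

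Genes were then ranked by how closely their log2 CPM followed RRM2 across the 12 samples, among the 9628 genes that averaged 10 CPM or more. The 5 closest were YWHAH, a 14-3-3 protein (Pearson's r = 0.999), CDCA8 (0.999) and KIF20A (0.998), which act in mitosis, CDC6 (0.998), which loads the replicative helicase, and RAD54B (0.998), which acts in recombination. TYMS came sixth (r = 0.998), TK1 was at place 53 (0.996), CTPS1 at place 120 (0.994) and RRM1 at place 563 (0.98), while SAMHD1 had an r of -0.23. These points share the groups, and the difference between siCHKA and siNT enters every coefficient.

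After the group means were removed, the closest genes over the same 12 samples were ALDH1B1 (r = 0.92), TMX4 (0.909), POLDIP2 (0.907), CDCA8 (0.891) and CHRNA5 (0.889). CDCA8 was on both lists. Of the 9 genes, CTPS1 (0.843), TK1 (0.756) and TYMS (0.699) had the highest r with RRM2, followed by RRM1 (0.525), SAMHD1 (0.414), DUT (0.078), DTYMK (0.057) and DCK (-0.04). The last 3 had opposite signs in the groups of 6: r was 0.734 in siNT and -0.47 in siCHKA for DUT, 0.531 and -0.56 for DTYMK, and 0.386 and -0.79 for DCK. In siCHKA, DUT and DTYMK were also among the genes that the sets separated. The samples share library depth and normalization, and these coefficients are a description.

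Of 26 other listed genes of deoxynucleotide metabolism, 24 were tested, and 12 were lower, 7 higher and 5 neither in edgeR's test, with a median log2 fold change of -0.11. That is 50% lower and 29.2% higher, beside 30.1% and 32.1% of all genes tested, so the share of higher genes was near the background. CDA did not pass the filter and NME2 was listed at 0 reads in every sample. Reads on overlapping genes or with several alignments were left out of the counts, so that 0 need not mean absence of the transcript. PNP, the purine nucleoside phosphorylase that frees bases for salvage, had the smallest p among the lower genes (log2 fold change -1.80, SE 0.11, adjusted p = 1.874e-10), from 118.3 ± 14.1 CPM in siNT to 33.9 ± 5.99 CPM in siCHKA. PNP averaged 28.5 CPM in siCHKA replicates 1, 3 and 5 and 39.3 CPM in replicates 2, 4 and 6 (log2 fold changes of -2.05 and -1.60). NUDT1, which hydrolyses oxidised purine deoxynucleotides (-0.72, adjusted p = 6.84e-07), also fell.

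The higher genes of that list were led by NT5M, the mitochondrial deoxynucleotidase, which rose from 7.49 ± 0.581 to 13.2 ± 1.18 CPM (log2 fold change 0.82, adjusted p = 1.61e-07, edgeR). ADA, adenosine deaminase (0.40, adjusted p = 0.0006947), and GUK1, guanylate kinase (0.28, adjusted p = 0.001739), rose as well. Listed genes that break down deoxynucleotides or deoxynucleosides moved both ways. NT5M, ADA and TYMP (0.28) were higher, and PNP, NT5C (-0.42) and DCTPP1 (-0.41) were lower. Of the genes for the reductants of ribonucleotide reductase, TXN (log2 fold change 0.05, adjusted p = 0.5129) and TXNRD1 (-0.01, adjusted p = 0.9519) did not pass the test, while GLRX fell by 0.22 on the log2 scale (adjusted p = 0.01844), a call lost in 4 of 14 alternative analyses. TXNRD1 averaged 587.7 CPM in siCHKA replicates 1, 3 and 5, 473.3 CPM in replicates 2, 4 and 6 and 532.6 CPM in siNT. Its log2 fold change was 0.14 with the first set and -0.18 with the second.

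**Figure D4:**
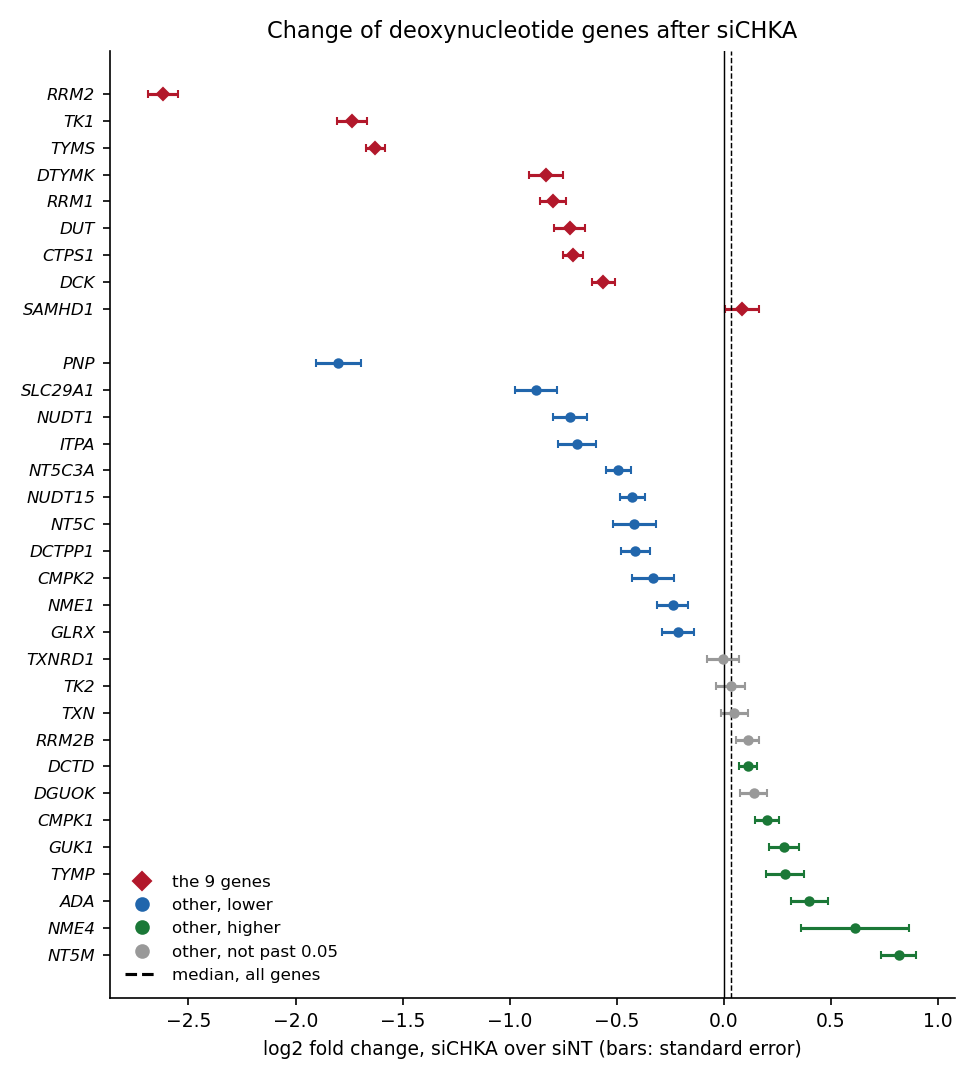
Log2 fold change with SE of the 9 genes and of most of the other deoxynucleotide genes tested, siCHKA over siNT, with genes in rows and a dashed line at the median of all genes. RRM2 is the furthest to the left at -2.62, and NT5M the furthest to the right at 0.82.

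Of the 15 folate and one-carbon genes, 14 were tested, with 9 lower and 5 higher (median log2 fold change -0.28), and ALDH1L1 was not tested. These were 64.3% lower and 35.7% higher, beside 30.1% and 32.1% of all genes tested. The share of higher genes was thus near the background. The lower genes included SLC25A32, the mitochondrial folate carrier (-0.90, SE 0.06, adjusted p = 1.645e-09, edgeR), and MTHFD1, the cytosolic trifunctional enzyme that supplies thymidylate and purine synthesis (-0.63, adjusted p = 1.889e-09). MTHFD2L, a mitochondrial dehydrogenase, rose (0.84, adjusted p = 2.195e-07) from 17.8 ± 2.00 to 31.8 ± 3.48 CPM.

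Of 8 pyrimidine ribonucleotide genes, all tested, 6 were lower and 1 higher (median -0.24). These were 75% and 12.5%, beside 30.1% lower and 32.1% higher of all genes tested. The uridine-cytidine kinases UCK2 (log2 fold change -0.55, adjusted p = 5.903e-09, edgeR) and UCK1 (-0.30, adjusted p = 2.598e-05) and UMPS, which completes UMP (-0.24, adjusted p = 0.000302), fell. The calls of UCK1 and UMPS were lost when only 1 count file per sample was used (adjusted p = 0.07982 and 0.05424). UPP1, uridine phosphorylase, rose (1.29, adjusted p = 5.449e-05) from a low level of 1.01 ± 0.397 to 2.60 ± 0.444 CPM.

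Of 16 purine ribonucleotide genes, all tested, 13 were lower and 2 higher (median -0.41). These were 81.2% and 12.5%, beside 30.1% lower and 32.1% higher of all genes tested. PFAS (log2 fold change -0.82, adjusted p = 5.396e-10, edgeR) and PAICS (-0.54, adjusted p = 4.215e-08), both of the route to IMP, fell, as did HPRT1, which salvages hypoxanthine and guanine (-1.17, adjusted p = 2.122e-08). HPRT1 averaged 24.6 CPM in siCHKA replicates 1, 3 and 5 and 32.9 CPM in replicates 2, 4 and 6 (log2 fold changes of -1.39 and -0.98). The higher genes were ADSS1, the muscle type adenylosuccinate synthase (1.05, adjusted p = 3.978e-08), at 10.2 ± 0.937 against 4.89 ± 0.559 CPM, and APRT, which salvages adenine (0.36, adjusted p = 3.036e-05).

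All 24 S phase replication genes listed were lower in edgeR's test (median log2 fold change -1.34, range -1.93 to -0.48), beside 30.1% of all genes tested. In all 24 every siCHKA sample was below every siNT sample, which was so for 21.5% of all genes tested. CDC6 (-1.88, SE 0.05, adjusted p = 4.104e-14), MCM7, a helicase subunit (-1.53, adjusted p = 7.94e-14), and GINS1, a helicase cofactor (-1.85, adjusted p = 1.093e-13), had the smallest p. RRM2 had a lower log2 fold change than each of the 24. For TK1, 3 of the 24 were lower, and for TYMS 6, whereas 22 were lower than RRM1 and than DTYMK, and 23 were lower than DUT, DCK and CTPS1. The 9 genes thus fell into RRM2, TYMS and TK1, which lay within or beyond the range of the replication genes' larger decreases, and the others, which lay near or above its upper end. RRM2 and TYMS were chosen for their fall in this same comparison, so this ordering is a description and supports nothing. No test was made of it.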

How the data were processed

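Polyadenylated RNA from 12 samples was sequenced as single-end reads of 40 bases. The authors aligned reads with TopHat2 2.0.4 to GRCh37, per the labels and the study's methods, counted them on Ensembl genes with HTSeq 0.5.3p9 and deposited raw counts per gene, in 4 files per sample. HTSeq leaves out reads with several alignments or on overlapping genes. Of reads counted on a gene, on no gene or as ambiguous, 3.93% to 4.12% were ambiguous. The labels and the methods name different RNA extraction kits, and the labels name a flow sort of the cells.

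The 4 files of a sample were summed. Rows that name no gene were left out. Coordinates and lengths are from GENCODE release 44 (GRCh38), matched by identifier, and 82.8% of identifiers had a symbol. The counts were made on an earlier Ensembl annotation of GRCh37, so exons annotated since then add length without reads. Counts were filtered with filterByExpr, normalized with TMM and tested with the quasi-likelihood test of edgeR 4.0.16 (R 4.3.3), comparing siCHKA with siNT and using no covariates. P-values were adjusted by Benjamini-Hochberg over 14501 genes, with a threshold of 0.05. CPM use TMM library sizes, and log2 CPM a prior count of 2. SE is the log2 fold change divided by the square root of F. On simulated data, 182 of 200 genes changed 2-fold were recovered, with 9 false calls, among 14125 genes. The simulation changed far fewer genes than were called here and held no sets among siCHKA samples. It therefore does not measure the error rate in these data. Alternatives were DESeq2 1.42.0, other filters, a 2-fold minimum, 1 count file per sample, a replicate block, each replicate left out and each siCHKA set alone.

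The 9 genes and the lists were chosen with earlier results of these data known. Named beside the 9 were RRM2B, TK2, DGUOK, DCTD, CHKA, ENOSF1, up to 3 genes per direction with the smallest p in each list, and the 5 closest to RRM2 by each correlation. TXN, TXNRD1, GLRX, CTPS2, TYMP, NT5C and DCTPP1 were named after their values were seen. Some genes that this rule names are not reported here.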

Additional observations from a re-analysis of the deposited data

Results flagged for a closer look

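RRM1 in siNT replicate 4 stood apart from its group, at 343 CPM against 296.6 to 312.3 CPM in the other 5 samples. Its gap to the nearest sample was 0.664 of the group's range, above Dixon's critical value for 6 samples. It was the only such value among 30 groups of 6 examined, where chance gives about 1.5. Without replicate 4 of both groups, RRM1 had a log2 fold change of -0.73, against -0.80 with all samples.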

How the results depend on the processing

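Under all 14 alternative fits 8 of the 9 genes were lower, and each of the 8 kept its direction. SAMHD1 was called higher with siCHKA replicates 1, 3 and 5, a set found in these data. The median log2 fold change over the 9 genes was -0.83 to -0.73 when 1 replicate was left out. It was -0.86 with siCHKA replicates 1, 3 and 5 and -0.74 with replicates 2, 4 and 6. Counts of lower genes stayed within 1.5 times in every pathway list. Requiring a 2-fold change left 654 lower and 785 higher genes of 4371 and 4650, with RRM2, TYMS and TK1 as those of the 9 past it. Per length of canonical transcript the RRM2 to RRM1 ratio was 0.885 in siNT and 0.251 in siCHKA, as a ratio of CPM 0.918 and 0.260, against 0.424 and 0.12 over the summed exons, and 5 of 9 genes kept their place in the order of siNT levels. TK2, not called in any fit, changed sign without replicate 3 (-0.015, leave-one-out range -0.015 to 0.066). TXNRD1 changed sign with at least 10 counts in every sample (0.019), 1 count file (0.011), siCHKA replicates 1, 3 and 5 (0.145) and replicates left out (-0.063 to 0.045), and ENOSF1 with siCHKA replicates 2, 4 and 6 (0.087) and replicates left out (-0.146 to 0.017). Deviations of same-numbered samples from their group means had correlations from -0.515 to 0.575. The siCHKA deviations carry the difference between the sets, so these values cannot tell whether the numbers pair the samples. A replicate block gave 4273 lower and 4494 higher genes and 8 lower of the 9. Among the named genes whose adjusted p was recomputed, the block changed the call of DCTD (adjusted p = 0.06452, edgeR). Levels of TYMS, DUT, RRM2, DCK and SAMHD1 are limited by reads shared with other genes, and genes near the floor of 3 reads, such as UPP1, by depth.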
